A study of Mus musculus with 18 samples.

Results

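The 45 genes described here encode proteins of the DNA replication machinery, from those that mark origins to those that rebuild chromatin behind the fork. They were chosen by name, by the textbook role of their products, and no measured value enters the rule. Earlier results of these data were known when the choice was made, and some subunits of the same complexes are not among the 45. All 45 were found among the 19153 genes with deposited values, and all 45 passed the filter that left 17672 genes for testing, which asked for over 5 reads in all 3 libraries of at least 1 group. The mRNA of mouse myoblasts, the muscle precursor cells, was sequenced in 18 libraries, which form 6 groups of 3 replicates. Every cell in the study lacked p53 and was immortal. Wildtype (WT) cells had received the Cas9 plasmid without a guide. Knockout (KO) cells had received the same plasmid with a guide against LAP2α, the lamin-binding nuclear isoform made from Tmpo, and were sorted as a pool of transfected cells, not as 1 clone. Each genotype was collected while proliferating below confluency in medium with 20% serum (Prol), at high density in the same medium on day 0 (D0), and on day 2 after the switch to 5% serum (D2), when cells differentiate.

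A cell copies its DNA once per division. In G1 the origin recognition complex, CDC6 and CDT1 load the ring-shaped MCM2-7 helicase onto origins, which is called licensing. In S phase, kinases recruit MCM10, CDC45 and the GINS complex to start the helicase, and polymerases, the PCNA clamp and its loader, RPA, ligase and the enzymes that supply nucleotides follow. Many of these genes are transcribed under E2F factors, which the retinoblastoma protein holds in check when cells leave the cycle. Myoblasts leave the cycle before they differentiate, and LAP2α is known to bind A-type lamins and the retinoblastoma protein. The comparisons ask how far the machinery's transcripts fell on differentiation, whether they already differed at confluency, and whether loss of LAP2α changed them.

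Promoter sequences are shown because transcripts of these genes moved together, and the letters bound by E2F and by the CCAAT-binding factor NF-Y are usual in promoters of this kind. RefSeq sequences (GRCm38.p6) from 250 bases before to 50 bases after the start matched 37 of the 45 genes, with 44 windows. One of the E2F-type words TTTCCCGC, TTTCGCGC, TTTGCCGC or TTTGGCGC, read on either strand, occurred in 15 of the 44 windows (34.1%) and in 744 of all 32851 windows of the same length (2.26%). CCAAT on either strand occurred in 26 of the 44 (59.1%) and in 37.4% of all windows. Both kinds of word were present in 9 of the 44 windows (20.5%), against 0.962% of all. Among windows of the 15262 promoters whose gene is in the expression files, the shares were 3.61% for the E2F-type words and 37.5% for CCAAT. These matches are letters in a window, not measured binding sites. The 170 bases before the start are printed 5′ to 3′ for Mcm10, Rrm2 and Cdc6, which had the largest falls. They are also printed for Mcm5, Mcm6, Orc1 and Rfc3, which have E2F-type words. These sequences show E2F-type words and CCAAT (or ATTGG, its other strand) in capitals. They lie at chr2:5012792-5012961 on the minus strand (Mcm10), chr12:24708084-24708253 on the plus strand (Rrm2), chr11:98907981-98908150 on the plus strand (Cdc6), chr8:75109339-75109508 on the plus strand (Mcm5), chr1:128359706-128359875 on the minus strand (Mcm6), chr4:108579284-108579453 on the plus strand (Orc1) and chr5:151651209-151651378 on the minus strand (Rfc3).
Mcm10: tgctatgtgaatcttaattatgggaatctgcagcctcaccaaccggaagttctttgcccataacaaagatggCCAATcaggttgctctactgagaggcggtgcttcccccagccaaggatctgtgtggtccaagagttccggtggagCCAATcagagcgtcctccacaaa
Rrm2: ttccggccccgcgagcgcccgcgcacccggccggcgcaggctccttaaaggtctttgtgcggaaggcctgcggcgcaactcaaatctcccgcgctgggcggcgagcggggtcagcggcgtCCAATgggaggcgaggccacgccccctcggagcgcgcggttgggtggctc
Cdc6: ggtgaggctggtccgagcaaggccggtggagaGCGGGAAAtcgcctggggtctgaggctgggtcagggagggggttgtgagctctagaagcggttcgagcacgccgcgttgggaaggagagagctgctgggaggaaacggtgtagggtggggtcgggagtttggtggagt
Mcm5: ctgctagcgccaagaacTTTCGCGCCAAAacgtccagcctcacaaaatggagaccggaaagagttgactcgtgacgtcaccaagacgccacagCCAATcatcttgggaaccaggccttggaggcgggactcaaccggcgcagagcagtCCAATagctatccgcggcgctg
Mcm6: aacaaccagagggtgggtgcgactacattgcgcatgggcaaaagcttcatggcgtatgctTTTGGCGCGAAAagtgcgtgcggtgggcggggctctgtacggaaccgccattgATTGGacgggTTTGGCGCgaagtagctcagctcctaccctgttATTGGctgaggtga
Orc1: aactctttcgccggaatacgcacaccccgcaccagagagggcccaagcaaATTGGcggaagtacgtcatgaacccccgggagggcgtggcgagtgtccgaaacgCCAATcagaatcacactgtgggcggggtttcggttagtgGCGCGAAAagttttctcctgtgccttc
Rfc3: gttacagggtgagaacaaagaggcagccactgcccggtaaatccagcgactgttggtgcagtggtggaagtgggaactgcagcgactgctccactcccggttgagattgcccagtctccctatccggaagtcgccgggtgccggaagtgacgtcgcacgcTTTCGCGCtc
In Mcm5 and Mcm6 a pair of E2F-type words on opposite strands overlapped by 4 bases, and Mcm6 carried a separate word nearer the start. Mcm10 and Rrm2 had none of the E2F-type words in the window but had CCAAT. Of the 37 matched genes, 8 had neither kind of word. Tk1, with a log2 fold change at D2 of -2.98 (mean of both genotypes), was among these 8. That fall came next after Cdc6 among the matched genes, and the Tk1 window is not printed. Across the windows, those with an E2F-type word belonged to genes whose log2 fold change at D2 (mean of both genotypes) had a median of -2.27 and ran from -3.09 to -0.69. Windows without one had a median of -1.98 and ran from -3.26 to -1.17, so the ranges overlapped nearly throughout. Genes with several windows were counted once for each, and Lig1, Mcm7 and Uhrf1 had windows of both kinds.

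Values are CPM, read counts scaled to the size of the library by the authors. Library totals ran from 26437823 to 41619016 expected counts, with a median of 32939620, so that 3 counts correspond to 0.0759 to 0.138 CPM. Labels do not say that replicates came from separate cultures, so p-values measure the spread between these libraries only. In RNA from a mass of cells, fewer cells in S phase and less RNA per cell cannot be told apart. Tmpo was read at 275 to 315 CPM in WT Prol and at 228 to 260 CPM in KO Prol, and gene totals do not separate its isoforms, so they do not test the knockout. Of the myoblast markers, Myf5 was present in Prol at 20.5 to 27.4 CPM, while Myod1 was at 0.736 to 5.88 CPM and Ckm near 0. The 9 muscle markers summed to 37.2 to 67.9 CPM in Prol and D0, to 1930 to 3630 CPM in WT D2 and to 1210 to 1410 CPM in KO D2. Fibroblast genes also moved with the state. The 6 on the list summed to 747 to 5280 CPM before and 5190 to 24200 CPM at D2, highest in replicate 1, with Thy1 at 0.0161 to 1.99 CPM throughout. The 3 endothelial markers with values summed to at most 2.46 CPM, the 1 immune marker with a value (Cd68) to 3.22 CPM and the 2 Schwann cell markers to 3.71 CPM. The 2 adipocyte markers, mostly Fabp4, summed to 1.15 to 31.6 CPM. What part such differences had in the results was not tested.

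On differentiation nearly all of the 45 genes fell together in both genotypes. From Prol to D2, 42 of 45 genes passed the test as lower in WT, where 14.1% of all genes did (limma, adjusted p under 0.05), and 43 of 45 in KO, where 15.2% did. None passed as higher. In a fit blocked on replicate number 44 passed as lower in WT, where 23.3% of all genes did, and 45 in KO, where 23.9% did. The median log2 fold change of the 45 was -1.98 in WT, a 3.93-fold fall, and -2.16 in KO, a 4.47-fold fall, while the median of all genes was -0.01 and 0.02. For 8 further subunits of the same complexes, outside the 45, the medians were -0.42 and -0.55. Of these, 1 in WT and 2 in KO passed as lower. Even the least changed member, Gins4, had a log2 fold change below 0 in both genotypes. All 3 D2 libraries lay below all 3 Prol libraries for 43 members in WT, against 20.5% of all genes, and for 44 in KO, against 22.6%. Ranked among all genes from the largest fall, the members sat between percentiles 0.634 and 27.8 in WT, with a median of 3.3, and between 0.453 and 21.5 in KO, with a median of 2.71. The summed level of the 45 genes was 5570 ± 419 CPM (SD, n = 3) in WT Prol and 1520 ± 230 CPM in WT D2. In KO it was 5640 ± 412 CPM in Prol and 1370 ± 240 CPM in D2. The library values of this sum ran from 5151 to 6025 CPM in Prol and from 1181 to 1694 CPM in D2, with a wide gap between the states.

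**Figure D1:**
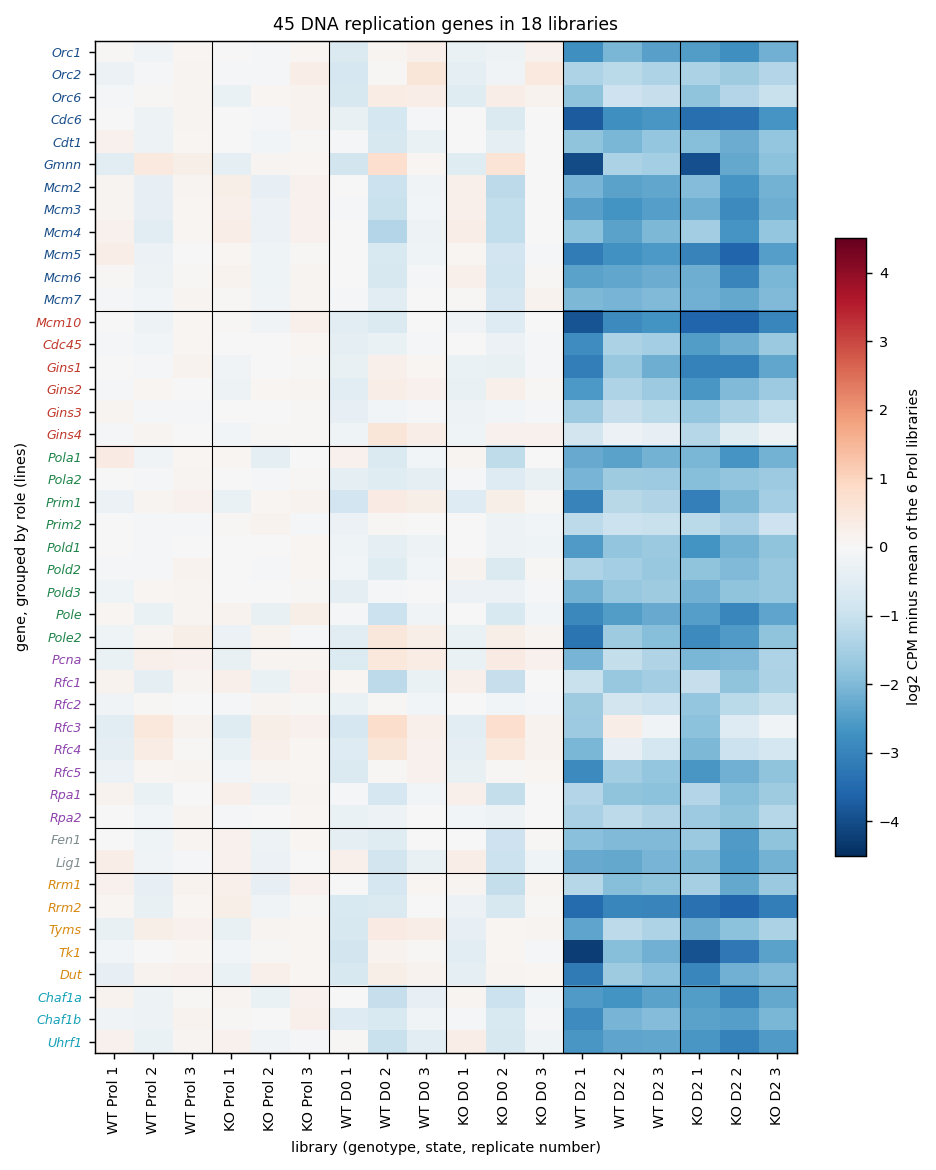
Each row is 1 of the 45 replication genes, ordered and coloured by role, and each column 1 library; colour gives log2 CPM minus the mean of the 6 Prol libraries. The 6 D2 columns are lower across nearly all rows, with the D2 replicate 1 libraries of both genotypes darkest for genes such as Gmnn and Tk1, and Gins4 and Rfc3 stay pale.

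All 12 licensing genes passed the test as lower in both genotypes, with median log2 fold changes of -2.28 in WT and -2.35 in KO. Cdc6 (chr11:98907801-98923940, plus strand), the ATPase that brings the helicase to origins and whose promoter is printed above, fell furthest. Its WT Prol libraries read 56.1, 46.9 and 60 CPM and its WT D2 libraries 4.12, 8.08 and 8.91 CPM. In KO the Prol libraries read 54.7, 51.7 and 61.6 CPM and the D2 libraries 5.21, 5.39 and 8.81 CPM. The groups did not overlap in either genotype, and the log2 fold change was -3.02 ± 0.30 (SE) in WT (adjusted p = 2.05e-06) and -3.15 ± 0.30 in KO (adjusted p = 1.7e-06). Orc6, a subunit of the origin recognition complex that is also used in cell division, fell least of the 12. It went from 118, 129 and 136 CPM to 35.6, 65.7 and 61.9 CPM in WT. In KO it went from 103, 134 and 139 CPM to 36.0, 50.4 and 62.4 CPM. Its D2 libraries were below its Prol libraries throughout, with a log2 fold change of -1.28 ± 0.32 in WT (adjusted p = 0.00575) and -1.36 ± 0.32 in KO (adjusted p = 0.00351). Without the 6 libraries numbered 2, a choice made after the data were seen, the KO value was -1.34 and no longer passed.

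The helicase itself fell as a unit but not by equal amounts. Mcm2 to Mcm7 were within a narrow span in WT Prol per length of transcript, 52.2 to 81.1 CPM per kb, and at D2 spanned 9.59 to 20.0 CPM per kb. In KO the span was 57.5 to 82.0 CPM per kb in Prol and 8.59 to 18.5 CPM per kb in D2. Mcm5 fell most of the ring, with a log2 fold change of -2.83 ± 0.29 in WT and -3.0 ± 0.29 in KO, and Mcm4 and Mcm7 fell least, with log2 fold changes of -2.01 and -2.02 in WT. The proteins that regulate loading behaved differently from each other across libraries. Cdt1, the loader that geminin inhibits, read 100, 75.0 and 93.7 CPM in WT Prol and 25.2, 21.1 and 26.3 CPM in WT D2. Gmnn, which encodes geminin, read 42.0, 80.8 and 70.7 CPM and then 3.65, 22.1 and 20.4 CPM. Replicate 1 was the lowest of its group for Gmnn in both states, and the SE of its log2 fold change, 0.64, was the largest of the 45 genes, beside a value of -2.39 in WT (adjusted p = 0.00929) and -2.63 in KO (adjusted p = 0.00485).

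Helicase activation held both extremes. Mcm10 (chr2:4989714-5012791, minus strand), which helps the loaded helicase to start unwinding, had the largest mean fall of all 45 genes. WT Prol libraries read 93.4, 80.9 and 100 CPM and WT D2 libraries 6.38, 12.7 and 14.5 CPM, a log2 fold change of -3.11 ± 0.28 (adjusted p = 1.18e-06). KO Prol libraries read 96.7, 84.8 and 109 CPM and KO D2 libraries 7.97, 7.76 and 12.3 CPM, a log2 fold change of -3.40 ± 0.28 (adjusted p = 8.27e-07). Every D2 library was below every Prol library by a wide margin. Gins4 (chr8:23226616-23237659, minus strand), which encodes a subunit of the same GINS complex as Gins1, Gins2 and Gins3, did not pass. It read 61.3, 70.2 and 63.0 CPM in WT Prol and 36.4, 53.7 and 50.4 CPM in WT D2. The KO libraries read 58.6, 67.4 and 66.2 CPM in Prol and 26.5, 44.6 and 54.8 CPM in D2. The D2 libraries of Gins4 still lay below its Prol libraries in each genotype, with a log2 fold change of -0.49 ± 0.25 in WT (adjusted p = 0.163) and -0.67 ± 0.25 in KO (adjusted p = 0.0522). In the fit blocked on replicate number the adjusted p was 0.0176 in WT and 0.00216 in KO. The other GINS genes and Cdc45 passed in both genotypes. Gins1 went from 28.3, 27.0 and 30.9 CPM to 3.26, 8.49 and 6.03 CPM in WT and from 24.7, 27.7 and 29.2 CPM to 3.39, 3.40 and 5.48 CPM in KO, the largest fitted fall of the GINS genes.

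All 9 genes of the polymerases and primase passed in both genotypes. Pole, the catalytic subunit of the leading-strand polymerase, fell most. Its WT libraries read 142, 108 and 143 CPM in Prol and 17.5, 23.3 and 27.5 CPM in D2, and its KO libraries 146, 104 and 160 CPM and then 23.9, 17.2 and 25.3 CPM. The log2 fold change was -2.54 ± 0.27 in WT (adjusted p = 4.92e-06) and -2.63 ± 0.27 in KO (adjusted p = 3.73e-06), with no overlap of the states. Prim2, the large subunit of the primase that starts each new strand, fell least. It went from 36.5, 34.3 and 35.4 CPM to 16, 18.6 and 18 CPM in WT and from 38.2, 40.4 and 34.0 CPM to 15.7, 13.4 and 19.3 CPM in KO. These replicates were close to each other, and the log2 fold change of Prim2 was -1.02 ± 0.16 in WT (adjusted p = 0.000183) and -1.23 ± 0.16 in KO (adjusted p = 3.17e-05).

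The clamp, clamp loader and RPA group kept the most transcript, with median log2 fold changes of -1.36 in WT and -1.52 in KO. Here 6 of 8 genes passed in WT and 7 of 8 in KO. Rfc5, a small subunit of the clamp loader, fell most, from 94.3, 123 and 124 CPM to 15.9, 38.8 and 34.7 CPM in WT and from 104, 125 and 121 CPM to 18.5, 25.5 and 33.0 CPM in KO. The states were apart in both genotypes, with a log2 fold change of -2.03 ± 0.31 in WT (adjusted p = 0.000136) and -2.22 ± 0.31 in KO (adjusted p = 5.95e-05). Rfc3 (chr5:151642756-151651242, minus strand), another small subunit of the same loader, was the only member whose states overlapped in both genotypes. It read 64.5, 128 and 103 CPM in WT Prol and 29.7, 113 and 82.9 CPM in WT D2. The KO libraries read 64.4, 111 and 106 CPM and then 25.7, 62.1 and 82.6 CPM. Replicate 1 was the lowest in every group, and the log2 fold change of Rfc3 was -0.54 ± 0.54 in WT (adjusted p = 0.499) and -0.84 ± 0.54 in KO (adjusted p = 0.258). Without WT D2 replicate 1 the WT value was 0.03, and in the blocked fit the KO value passed (adjusted p = 0.00413) while the WT value did not (adjusted p = 0.0509). Rfc4, a further subunit, stood near the threshold, with a log2 fold change of -1.07 ± 0.42 in WT (adjusted p = 0.0665, or 0.000231 with the replicate block) and -1.27 ± 0.42 in KO (adjusted p = 0.029). Leaving out KO D2 replicate 1 moved the KO value of Rfc4 to -0.90, and it then missed the threshold, as it also did without KO Prol replicate 2 or 3. Pcna, which encodes the sliding clamp itself, was the most abundant of the 45 transcripts per length in all 6 groups, at 262 CPM per kb in WT Prol and 92.6 CPM per kb in WT D2.

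DNA ligase 1 and the flap nuclease FEN1, which join Okazaki fragments, fell to a similar degree. Lig1 read 121, 88.1 and 96.1 CPM in WT Prol and 20.6, 19.8 and 23.1 CPM in WT D2, and in KO it read 112, 82.4 and 98.3 CPM and then 24.5, 16.6 and 22.8 CPM. Fen1 read 90.8, 79.5 and 97.4 CPM in WT Prol and 24.4, 22.5 and 22.7 CPM in WT D2, and in KO 102, 77.5 and 94.8 CPM and then 28.5, 15.4 and 25.8 CPM. All D2 libraries were well below the Prol libraries for both genes. Log2 fold changes were -2.25 ± 0.30 in WT and -2.21 ± 0.30 in KO for Lig1, and -1.94 ± 0.27 in WT and -2.01 ± 0.27 in KO for Fen1.

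Nucleotide supply fell with the fork proteins, and all 5 genes passed in both genotypes. Rrm2 (chr12:24708241-24714146, plus strand), the small subunit of ribonucleotide reductase, which makes deoxynucleotides, went from 313, 233 and 308 CPM to 26.8, 38.5 and 37.1 CPM in WT. In KO it went from 349, 260 and 305 CPM to 28.4, 24.8 and 33.8 CPM. No library of the 2 states came near the other state, and the log2 fold change of Rrm2 was -3.07 ± 0.24 in WT (adjusted p = 3.88e-07) and -3.39 ± 0.24 in KO (adjusted p = 4.82e-07). Tyms, thymidylate synthase, had the smallest mean fall over both genotypes of these genes, from 127, 194 and 182 CPM to 31.1, 70.3 and 60.9 CPM in WT and from 127, 174 and 168 CPM to 34.4, 44.5 and 59.3 CPM in KO. Replicate 1 was the lowest of its group in each case, and the log2 fold change of Tyms was -1.69 ± 0.33 in WT (adjusted p = 0.00116) and -1.78 ± 0.33 in KO (adjusted p = 0.000715). Tk1, thymidine kinase of the salvage route, stood at 9.76, 49.2 and 41.1 CPM in WT D2 and 12.1, 19.8 and 35 CPM in KO D2, with replicate 1 lowest in both.

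Chromatin duplication genes had the largest median fall of the 7 role groups, -2.46 in WT and -2.59 in KO over 3 genes. Uhrf1, which reads half-methylated DNA and brings the maintenance methyltransferase to the fork, went from 272, 193 and 257 CPM to 38.5, 45.7 and 46.6 CPM in WT. In KO it went from 271, 209 and 223 CPM to 38.7, 28.4 and 40.1 CPM. Its log2 fold change was -2.46 ± 0.27 in WT (adjusted p = 6.43e-06) and -2.72 ± 0.27 in KO (adjusted p = 2.8e-06), with the states apart. Chaf1b, a subunit of the histone chaperone CAF-1, went from 51.3, 47.9 and 62.6 CPM to 7.89, 13.3 and 14.7 CPM in WT and from 59.0, 55.7 and 65.8 CPM to 10.7, 10.1 and 13.7 CPM in KO. Its states were also apart, and the log2 fold change was -2.21 ± 0.25 in WT and -2.39 ± 0.25 in KO.

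**Figure D2:**
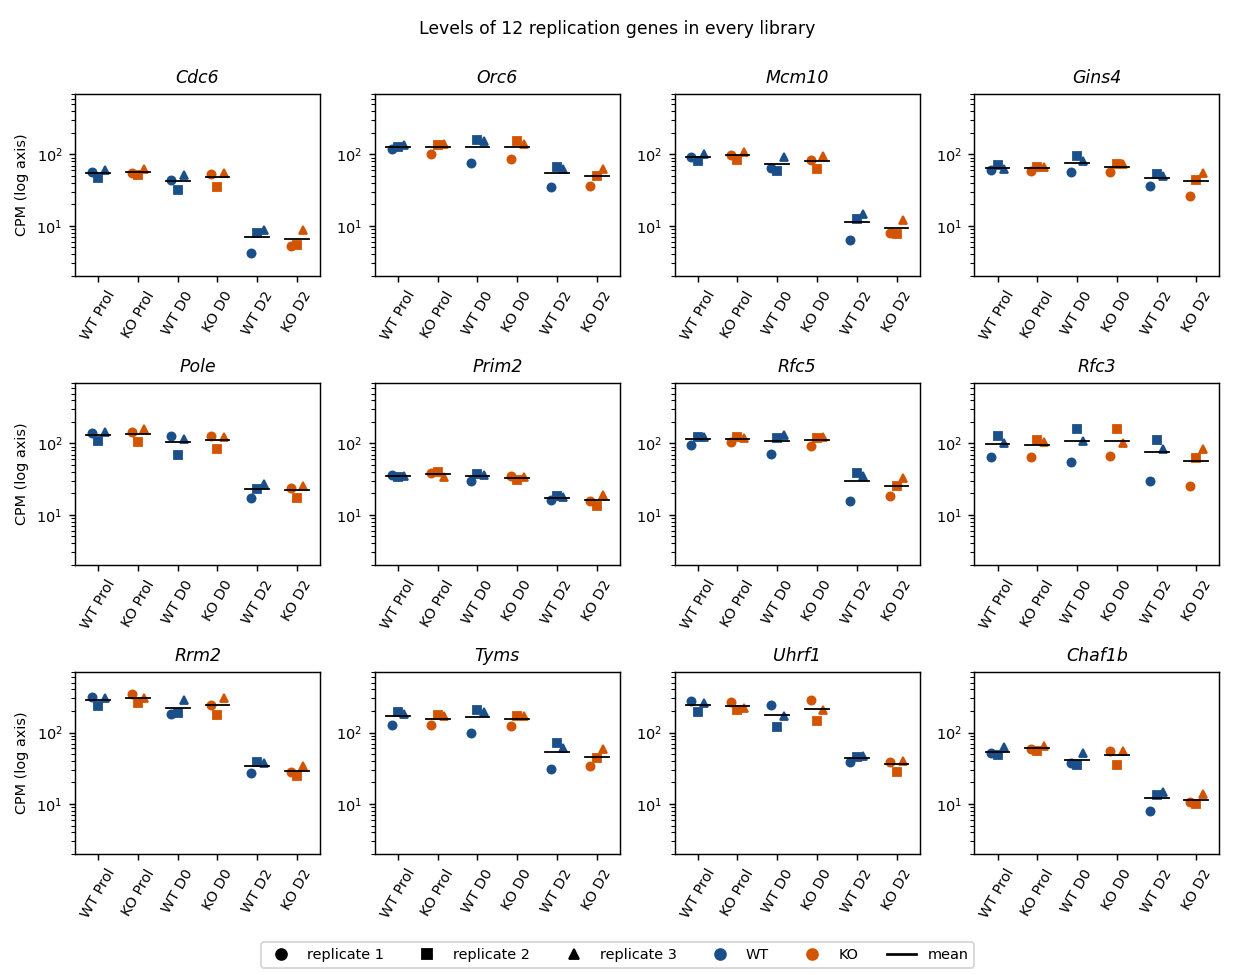
Each point is the CPM (log axis) of 1 library, with shape for the replicate number, colour for the genotype and a line at the mean, for 12 replication genes in the 6 groups. Mcm10 and Rrm2 drop furthest from Prol to D2, whereas the Rfc3 libraries of D2, 25.7 to 113 CPM, overlap those of Prol, 64.4 to 128 CPM.

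The order of the genes was alike in both genotypes. Across the 45 genes the log2 fold changes from Prol to D2 in WT and in KO had a Pearson r of 0.98 and a Spearman rho of 0.97, given as a description, since genes share libraries. Between transcript length and the fitted change the Spearman rho was -0.18 over the 45 genes. Per length, Gins3, at 8.59 CPM per kb, and Orc1, at 8.9 CPM per kb, were the least abundant in WT Prol. At D2 the lowest were Orc1 at 1.71, Mcm10 at 2.3 and Cdc6 at 2.75 CPM per kb in WT, and the same 3 genes in KO at 1.63, 1.92 and 2.53 CPM per kb. Rfc3, at 57.1 CPM per kb in WT and 43.1 CPM per kb in KO, came after Pcna as the most abundant of the D2 transcripts. Spreads between replicates were large for several of these genes, so close neighbours in these orders do not differ beyond them.

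**Figure D3:**
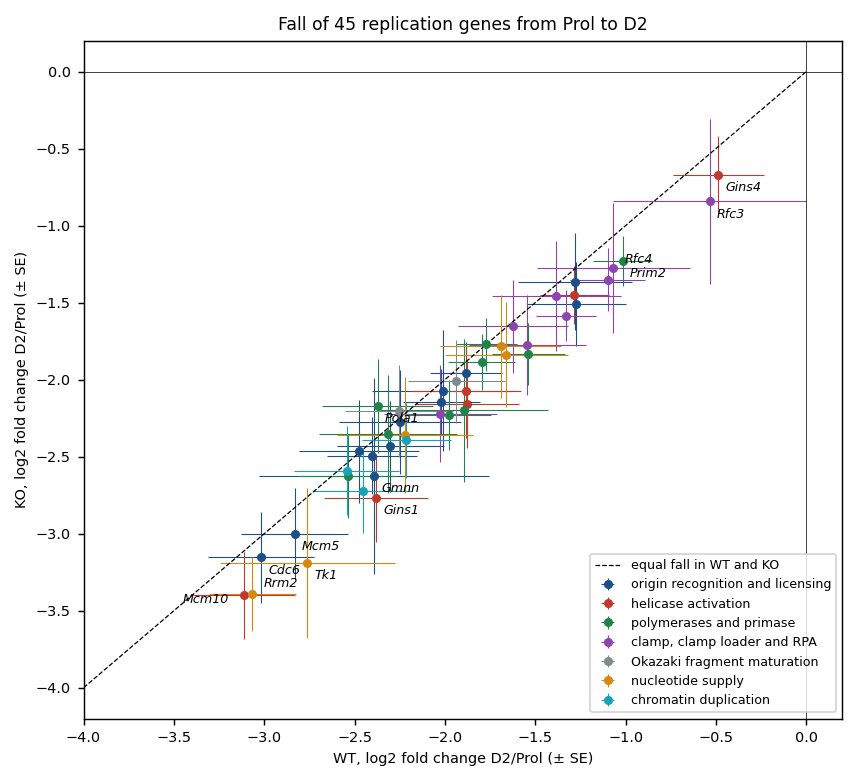
Each point is 1 replication gene, placed by its log2 fold change from Prol to D2 in WT (horizontal) and in KO (vertical), with bars for 1 SE and colour for the role. All 45 points lie below 0 on both axes, from Gins4 near the top right to Mcm10 and Rrm2 at the bottom left, and most lie a little under the dashed line of equal fall.

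Partners within a complex did not all fall in step. For 12 pairs the log2 ratio of the 2 transcripts was compared between Prol and D2 within each library, a value that does not depend on the scaling between libraries. In 5 of the 12 pairs the ratio fell (exact permutation test, two-sided, within genotype, p = 0.005, the smallest that the 400 regroupings allow, and 0.012 after adjustment over the 12 pairs). The largest shift was in ribonucleotide reductase. Rrm2 stood at a log2 ratio of -0.20, -0.08 and -0.19 to Rrm1 in WT Prol and of -2.27, -1.12 and -1.29 in WT D2. In KO the ratio was -0.08, 0.07 and -0.24 in Prol and -2.0, -1.37 and -1.55 in D2. No library of D2 reached the Prol range, and the shift was -1.48. Rrm1 itself, the large subunit, read 359, 247 and 351 CPM in WT Prol and 129, 83.9 and 90.8 CPM in WT D2.

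Orc1, the subunit of the origin recognition complex that is made afresh in each cycle, fell more than Orc2. The log2 ratio of Orc1 to Orc2 was -1.63, -2.03 and -1.97 in WT Prol and -3.29, -2.76 and -2.97 in WT D2. In KO it was -1.82, -1.94 and -2.14 and then -2.98, -3.09 and -2.77. The shift was -1.06, with no overlap. Orc1 fell from 27.8, 23.9 and 28.8 CPM to 4.03, 6.46 and 4.94 CPM in WT and from 27.5, 25.6 and 28.6 CPM to 4.76, 3.98 and 5.96 CPM in KO. Orc2 fell from 85.9, 97.7 and 112 CPM to 39.4, 43.7 and 38.7 CPM in WT and from 96.9, 98.3 and 126 CPM to 37.6, 33.9 and 40.7 CPM in KO. Orc6 kept its ratio to Orc2 within the spread, with a shift of 0.07 (exact permutation p = 0.685).

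Mcm10 fell more than Mcm2, a subunit of the helicase it helps to start, by 1.00 on the log2 scale of the ratio, with no overlap of the states. Mcm2 read 245, 173 and 241 CPM in WT Prol and 51.6, 41.7 and 44.3 CPM in WT D2. Gins2 fell more than Gins3, with a shift of -0.61 and ratios of 1.63 to 2.01 in WT Prol against 0.88 to 1.51 in WT D2. Gins2 read 74.3, 82.6 and 78.8 CPM and then 12.9, 30.0 and 24.8 CPM in WT, and Gins3 read 23.9, 20.5 and 20.5 CPM and then 7.01, 10.6 and 9.43 CPM. Prim1, the catalytic subunit of the primase, fell more than Prim2, with a shift of -0.92. Prim1 read 67.9, 88.5 and 92.4 CPM in WT Prol and 9.95, 34.3 and 31.8 CPM in WT D2, and the highest D2 ratio to Prim2, 0.88, was above the lowest Prol ratio, 0.77. Leaving out replicate 2 or 3 of Prol in either genotype left the Prim1 to Prim2 ratio short of the threshold after adjustment, at shifts between -0.92 and -0.84. In each of these 5 pairs the ratio was lower at D2 in all 6 comparisons of libraries with the same genotype and number.

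With all libraries the other 7 pairs did not pass. The shift of the log2 ratio was -0.59 for Gmnn to Cdt1 (exact permutation p = 0.34), -0.42 for Pold1 to Pold2 (exact p = 0.055) and 0.26 for Chaf1b to Chaf1a (exact p = 0.125). The Chaf1b to Chaf1a ratio was lower at D2 in 0 of 6 comparisons of libraries with the same genotype and number, which the test does not use. Without WT D2 replicate 1 this ratio passed after adjustment, at a shift of 0.40. Pold1 to Pold2 passed without WT D2 replicate 3, at a shift of -0.55. The shift was 0.25 for Pole2 to Pole (exact p = 0.39), 0.25 for Rfc4 to Rfc1 (exact p = 0.605) and 0.18 for Rpa2 to Rpa1 (exact p = 0.31). The spread of these ratios followed the replicate number. Replicate 1 had the lowest ratio of its group in 60 of the 72 combinations of pair and group, and in 9 of the 12 pairs the first-named transcript was the shorter. With the longer transcript first, Mcm10 to Mcm2 and Gins2 to Gins3 had replicate 1 lowest in 6 of 6 groups, and Pold1 to Pold2 in 3. With the shorter first, Orc1 to Orc2 had it in 1 of 6. In WT D2 the ratio of Gmnn to Cdt1 ran from -2.79 in replicate 1 to 0.07 in replicate 2, and in WT D0 that of Rfc4 to Rfc1 ran from -2.54 to -0.16.

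**Figure D4:**
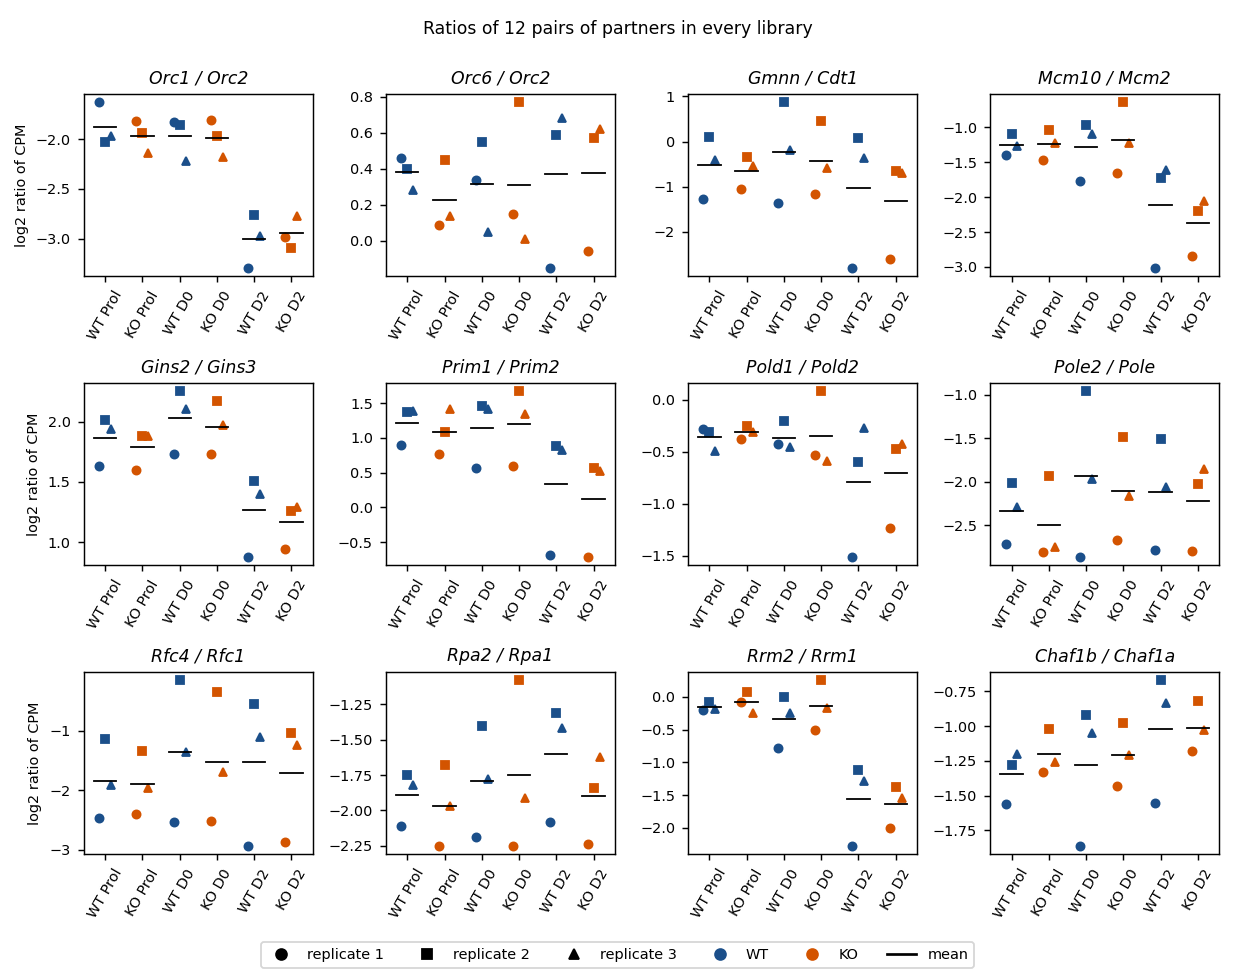
Each point is the log2 ratio of the CPM of 2 partners in 1 library, with shape for the replicate number, colour for the genotype and a line at the group mean, in 12 pairs and 6 groups. Orc1 / Orc2, Mcm10 / Mcm2, Gins2 / Gins3 and Rrm2 / Rrm1 are lower in all 6 D2 libraries than in all 6 Prol libraries, whereas Rfc4 / Rfc1 spreads by replicate number within every group.

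Measured from confluent cells in place of proliferating ones, the fall was of similar size. From D0 to D2, 41 of 45 genes passed as lower in WT, where 11.3% of all genes did, and 44 of 45 in KO, where 12.9% did. The log2 fold changes ran from -2.76 to -0.60 in WT with a median of -1.79, and from -3.12 to -0.74 in KO with a median of -1.94. The 4 genes that missed the threshold in WT were Gins4, Rfc1, Rfc3 and Rfc4, with adjusted p of 0.0502, 0.0587, 0.456 and 0.0585, and in KO it was Rfc3, with 0.174. These comparisons share the D2 libraries with those against Prol. In the fit blocked on replicate number all 45 passed in both genotypes, where 20.3% of all genes in WT and 22.4% in KO passed as lower.

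At D0 itself no gene of the machinery had passed the test against Prol in either genotype. In WT 1 gene of all those tested passed (0.00566%), and in KO none did (0%). At an unadjusted p under 0.05 there was 1 member in WT, against 2.17% of all genes, and none in KO, against 1.12%. In the blocked fit these counts were 8 in WT, against 6.7% of all genes, and 1 in KO, against 3.29%, and the smallest adjusted p was 0.66 and 0.98. The fitted values leaned downward. They were below 0 for 39 of 45 genes in both genotypes, with medians of -0.21 in WT and -0.17 in KO, while 54% of all genes in WT and 55.8% in KO were below 0. Under other scalings between libraries the count below 0 was 37 to 39 in WT and 36 in KO. All 3 D0 libraries lay below all 3 Prol libraries for 3 members in WT (Pola2, Pold1 and Pold2), against 2.82% of all genes, and for 5 in KO (Gins3, Pola2, Pold1, Pold3 and Chaf1b), against 1.94%.

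Pola2, the accessory subunit of polymerase alpha, which extends the primers, had the smallest p of the 45 at D0 in both genotypes. It read 63.6, 59.8 and 70.1 CPM in WT Prol and 47.5, 44.2 and 48.6 CPM in WT D0. In KO it read 63.5, 61.8 and 65.7 CPM and then 61.6, 42.8 and 50.3 CPM. The D0 libraries of Pola2 were all below its Prol libraries, with a log2 fold change of -0.46 in WT (95% interval -0.82 to -0.10, adjusted p = 1) and -0.32 in KO (-0.68 to 0.04, adjusted p = 1). By replicate number the picture at D0 was uneven. In WT all 45 genes were lower at D0 in replicate 1, 29 in replicate 2 and 31 in replicate 3, and in KO 31, 35 and 33 were lower. The intervals of the 45 genes lay within 2-fold in either direction for 35 genes in WT and 36 in KO, and the widest, that of Gmnn, ran from -1.42 to 1.28 in WT.

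No gene of the machinery passed the test between KO and WT in any state (limma). Across the comparisons of KO with WT the smallest adjusted p of the 45 was 1 in Prol, D0 and D2. Of all genes, 1 passed in Prol (0.00566%) and none in D0 (0%) or D2 (0%). The study used an unadjusted p, a threshold stated as an absolute log2 fold change over 1.5, and a lane block. It reported more genes changed in KO at D2 than in Prol. The call here took 1.5-fold, a lower cut than the stated one, and no lane block. Here, at an unadjusted p under 0.05, over 1.5-fold and at least 10 CPM, 45 genes of 17672 were lower at D2 and 37 higher. With 1 CPM added to each value, 28 passed as lower at D2 after adjustment and 3 as higher. Neither set held a member. At an unadjusted p under 0.05 there was no member in any state, where 1.11% of all genes in Prol, 1.47% in D0 and 1.96% in D2 were under it. No member had groups that did not overlap, against 4.41%, 3.02% and 6.17% of all genes. In the blocked fit the smallest adjusted p was 1 in Prol and D0 and 0.954 in D2, and with voom weights and a random block it was 1, 1 and 0.839. A p that misses the threshold does not show equal levels, and the intervals give what the spread allows. In the fit without the block they lay within 2-fold in either direction for 41 of 45 genes in Prol, 41 in D0 and 39 in D2. They lay within 1.5-fold for 12, 9 and 7.

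Fitted differences between KO and WT ran from -0.21 (Pola1) to 0.16 (Chaf1b) in Prol and from -0.22 (Gins1) to 0.28 (Mcm4) in D0. Pola1, the catalytic subunit of polymerase alpha and the member with the smallest p in Prol, read 92.9, 64.3 and 76.1 CPM in WT and 76.5, 53.5 and 71.1 CPM in KO (95% interval of the log2 difference -0.86 to 0.43). Cdt1, with the smallest p in D0, read 85.5, 53.9 and 71.3 CPM in WT and 89.5, 65.3 and 86.5 CPM in KO (-0.22 to 0.63). The ranges of the genotypes overlapped for both genes. At D0 the direction differed between replicate numbers. In replicate 1 only 1 of 45 genes was lower in KO D0 than in WT D0 (median log2 difference 0.25), in replicate 2 it was 32 (median -0.09) and in replicate 3 it was 19 (median 0.04). Fitted values at D0 were below 0 for 13 genes, for 2 without the libraries numbered 2 and for 29 without those numbered 1, both chosen after the data were seen.

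At D2 the fitted differences leaned below 0 in 40 of 45 genes, with a median of -0.13, while 52.2% of all genes were below 0. This lean rested on the libraries numbered 2. Compared by number, 45 of 45 genes were lower in KO D2 than in WT D2 in replicate 2, with a median log2 difference of -0.48, but 16 of 45 were lower in replicate 1 and 24 in replicate 3, with medians of 0.07 and -0.01. Without both D2 libraries numbered 2, an alternative chosen after the data were seen, 17 of 45 genes were below 0 and the median was 0.04. Gins1 had the smallest p and the largest fitted difference at D2, reading 3.26, 8.49 and 6.03 CPM in WT and 3.39, 3.40 and 5.48 CPM in KO. Its log2 difference was -0.47 (95% interval -1.08 to 0.14, adjusted p = 1), and the replicate 1 libraries of the genotypes were nearly level. KO D2 replicate 2 had the smallest summed level of the 45 genes of all libraries, 1181 CPM, beside 1694 CPM in WT D2 replicate 2.

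**Figure D5:**
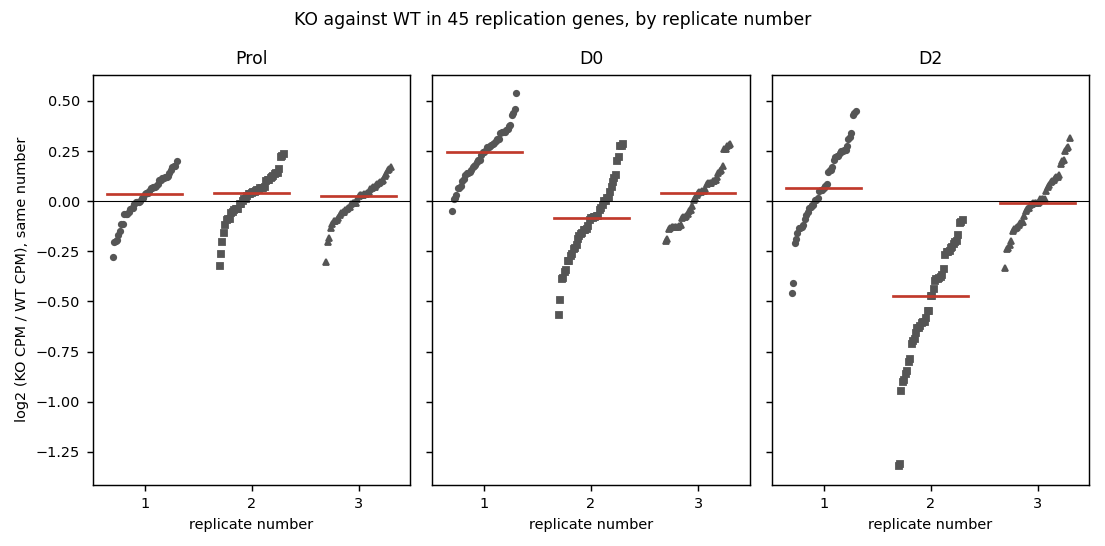
Each point is 1 of the 45 replication genes, at the log2 of its KO CPM over its WT CPM for libraries of the same state and number, sorted within each column, with a red line at the median. At D2 all 45 points of replicate 2 are below 0 (median -0.48), whereas replicates 1 and 3 straddle 0 (medians 0.07 and -0.01).

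Whether the fall itself differed between genotypes was tested as a difference of differences, and no member passed. For D2 against Prol the fitted difference of the log2 fold changes was below 0, that is a larger fall in KO, in 42 of 45 genes, with a median of -0.17. No member had an unadjusted p under 0.05 (0.945% of all genes did) and none of all genes passed after adjustment (0%). For D2 against D0 it was below 0 in 42 genes with a median of -0.18, again with no member at an unadjusted p under 0.05 (1.78% of all genes) and no gene passing (0%). Without both D2 libraries numbered 2 the medians were 0.02 and -0.01. Rpa2, a subunit of the single-strand binding protein RPA, had the smallest p for D2 against Prol. It read 55.0, 50.7 and 61.2 CPM in WT Prol, 20.0, 24.3 and 22.0 CPM in WT D2, 52.7, 55.8 and 58.9 CPM in KO Prol and 17.9, 15.7 and 22.8 CPM in KO D2. The difference was -0.26 (95% interval -0.75 to 0.24). Pold2, a subunit of polymerase delta, had the smallest p for D2 against D0, with 81.4, 59.6 and 81.1 CPM in WT D0, 33.6, 30.7 and 26.6 CPM in WT D2, 98.8, 56.3 and 91.6 CPM in KO D0 and 25.3, 22.1 and 26.8 CPM in KO D2. The difference was -0.42 (-1.03 to 0.19). Intervals of the difference for D2 against Prol lay within 2-fold for 18 of 45 genes in the fit without a replicate block. In that fit the comparison was coarse for most of the genes.

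Replicates of the same number resembled each other in a way that went with transcript length. Among the 45 genes, shorter transcripts were higher in replicate 2 than in replicate 1, with a Spearman rho between length and the log2 ratio of replicate 2 to replicate 1 between -0.66 and -0.55 over the 6 groups. Over 17606 genes with an annotated length the same rho was between -0.41 and -0.22. These are descriptions over genes that share the same 2 libraries. Gmnn, at 1.13 kb, read 33.4, 98.3 and 63.1 CPM in WT D0, while Rfc1, at 4.75 kb, read 170, 69.8 and 128 CPM there. The 2 genes moved in opposite directions between the same libraries. Col1a1 also stood apart in replicate 1 at D2, at 12300 CPM in WT and 13500 CPM in KO, against 1800 to 3750 CPM in the other D2 libraries. Leaving out both D2 libraries numbered 1, chosen after the data were seen, left 44 of 45 fitted values below 0 in WT and 45 in KO, with medians of -1.79 and -2.01, and the exception was Rfc3 in WT. Leaving out all 6 libraries numbered 1 left all 45 below 0 in both genotypes. What length, RNA quality or the fibroblast genes had to do with the levels was not tested.

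Of 79 further genes of replication, 56 passed as lower and none as higher from Prol to D2 in WT, and 58 passed as lower and 1 as higher in KO. Of all genes, 14.1% passed as lower in WT and 15.2% in KO. As higher, 2940 of all 17672 genes passed in WT and 3027 in KO. The share differed by role. Of 23 factors that fire origins or travel with the fork, 21 passed as lower in both genotypes, and Clspn, the checkpoint mediator claspin, fell most, with log2 fold changes of -2.92 in WT and -3.08 in KO. Chtf8, a subunit of an alternative clamp loader, had the smallest fitted change, -0.36 and -0.33, and did not pass. Of 7 S-phase cyclins, kinases and regulators, 6 in WT and 7 in KO passed as lower. Fbxo5, the inhibitor of the anaphase-promoting complex, was at -2.89 in WT and -3.21 in KO, while Cdk2 was at -0.19 in WT, which did not pass, and -0.53 in KO, which did (adjusted p = 0.0288). Of 9 histone supply and chromatin genes, 7 in WT and 8 in KO passed as lower, led by Hells, a chromatin remodeller, at -2.74 and -2.77, and Tonsl, at -0.13 and -0.34, did not pass.

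Checkpoint genes passed as lower in 7 of 8 in each genotype. Chek1, the checkpoint kinase of S phase, led them at -2.15 in WT and -2.23 in KO, and Rad17, at -0.48 and -0.49, did not pass. Of 10 other genes of nucleotide supply, 7 in WT and 6 in KO passed as lower. Tk2, the mitochondrial thymidine kinase, was the 1 gene of the 79 that passed as higher, in KO, at 0.61 (adjusted p = 0.012), beside 0.45 in WT (adjusted p = 0.0562). Of 8 subunits of the same complexes that the 45 do not include, 1 in WT and 2 in KO passed as lower. These small counts do not stand apart from the shares of all genes, 14.1% and 15.2%. Orc5 was at -1.12 and -1.26 and Pold4 at 0.50 and 0.37, the latter not passing. Translesion polymerases passed as lower in 3 of 6 in each genotype, with Polh at -1.12 and -1.16 and Rev3l at 0.56 and 0.77, which did not pass. Of 8 mitochondrial replication genes, 4 passed as lower in each genotype, and Ssbp1, with the largest mean fall of that list, was at -0.63 and -0.80 and did not pass. No gene of these lists passed between KO and WT in any state, where 0.00566% of all genes passed in Prol and 0% in D0 and D2.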

How the data were processed

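The authors trimmed strand-specific single-end reads, mapped them to the GRCm38.86 transcriptome, summed expected counts from RSEM to genes, removed low genes and deposited 1 file per library of CPM, counts scaled to library size. Per the file headers and values, the deposited CPM include 0.5 counts added to each gene and the TMM factor, so expected counts were recovered from the lowest value of each column. Library totals of 26437823 to 41619016 set the precision. Values were tested on the log2 scale with limma 3.58.1 in R 4.3.3 (a trend in the variance, 1 factor of 6 groups, 18 libraries, 17672 genes with over 5 expected counts in all 3 libraries of a group), with Benjamini-Hochberg adjustment over all of them and a threshold of 0.05. The sequencing lane that the study used as a block is not in the labels and was left out. Replicate numbers were checked as pairs. Deviations from group means correlated above 0.1 in 34 of 39 pairs of libraries with the same number (-0.036 to 0.645), in all 3 pairs for KO D2 against Prol and D0, D0 against Prol and KO against WT, but not for replicate 3 in WT D2 against Prol (0.039) or D0 (0.01), so the number was tried as a block. Ratios of 12 pairs were tested by exact permutation in Python with numpy 2.4.6 and pandas 2.3.3. Fits and permutations were tested on simulated data. Transcript lengths are those of the APPRIS principal transcript in GENCODE M21 (GRCm38), which the deposited gene identifiers matched. Named genes were, in each role group, the largest and smallest mean fall at D2, the smallest p in each comparison between genotypes and of D0 with Prol, and the members of the pairs; of other lists, the largest fall and rise (1 such gene is not reported here). Members and lists were chosen with earlier results of these data known. Cdt1, Rfc1 and Rrm1 overlap a further gene on the same strand that has deposited values. Other members, such as Mcm7 and Chaf1b, overlap annotated genes without deposited values. The counting could split reads in such places. Alternatives were voom weights, other scalings, pseudocount, filter and sample choices, other call criteria, replicate blocks and left-out libraries.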

Additional observations from a re-analysis of the deposited data

How the results depend on the processing

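The counts of members lower at D2 kept within 1.5 times under every alternative run. They ran from 42 to 44 in WT and 41 to 45 in KO against Prol, and from 38 to 45 in WT and 39 to 45 in KO against D0. With the replicate block 44 in WT and 45 in KO passed against Prol, where 23.3% and 23.9% of all genes passed as lower, and 45 in each against D0, where 20.3% and 22.4% did. With voom weights, all genes and a random block 44, 45, 44 and 45 passed, against 20.2%, 21%, 17.4% and 19.7% of all genes. No comparison of KO with WT, of D0 with Prol or of the differences gained a member with any alternative, except at an unadjusted p under 0.05. At that p WT D0 against Prol had 1 in the main fit. With the replicate block it had 8 (6.7% of all genes) and KO had 1 (3.29%). With voom weights and a random block these counts were 6 (5.4%) and 1 (2.76%). Of all genes, those lower in WT D2 against D0 were 1997, and 887 with only the groups compared. Tested within WT alone or KO alone, 0 pairs passed, since 3 against 3 libraries cannot give a p below 0.1. The shift of the Orc6 to Orc2 ratio was -0.007 in WT alone and ran from -0.007 to 0.20 as single libraries were left out. For Rfc3 in WT the fitted change ran from -0.93 to 0.03 as single libraries were left out, and was 0.03 without both D2 libraries numbered 1. The difference between genotypes for Rpa2 was 0.0027 without the 6 libraries numbered 2. Library totals in place of the authors' scaling moved the median of all genes at D2 to 0.15 in WT and 0.16 in KO, with all 45 members still below 0. A count of 3 was at most 0.138 CPM in any library, and the lowest value of a member in any library, that of Pole2 in WT D2 replicate 1, was 2.54 CPM.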
